A study of Mus musculus with 12 samples.

Results

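The 113 genes described here are solute carriers, the membrane proteins that move ions, metals, sugars, amino acids, nucleotides and vitamins across cell and organelle membranes. They were chosen by their symbol (Slc, a family number, the letter a and a member number) and by a mean of at least 50 reads over all 12 libraries. The deposited table lists 15217 genes, of which 222 have such a symbol. Slc30a1 and Slc29a1 were left out by name, and 107 others fell under the mean of 50 reads. Just inside that limit were Slc46a1 with a mean of 50.7 reads and Slc25a53 with 51.4, and just outside it were Slc25a20 with 49.8 and Slc38a9 with 49.3. All 113 members passed the filter on low counts, and all 113 were protein-coding genes in GENCODE M21 when matched by gene ID. The mean read count decided membership, so the abundance of the members is given as a description with no test. The differences between conditions were not part of the rule.

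The cells were wild-type NIH-3T3, an established mouse fibroblast line, and no transgene or deletion was labelled. They carried no 4-thiouridine (4sU, a uridine analog that is built into RNA as it is made) or had received 200 or 800 µM 4sU, with a labelling time of 2 hours. SLAM-seq then alkylated the incorporated 4sU so that it reads as a T-to-C change, and the study ran this chemistry either on isolated RNA in tubes or in methanol-fixed cells. The protocol text gives the tube reaction a lower temperature and a longer time than the other, so temperature, time and the place of the reaction cannot be told apart. The 3 doses and 2 procedures made 6 groups of 2 libraries, labelled A and B. Whether A and B came from separate cultures is not labelled, and p-values therefore speak only to the spread between libraries, which may be technical.

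Solute carriers are grouped by sequence into families that share a fold and often a substrate. The largest family, Slc25, holds most carriers of the mitochondrial inner membrane and a few members of other membranes, such as the peroxisomal Slc25a17. Among its members are the ADP/ATP translocases and the phosphate carrier that supply ATP synthesis. Other carriers work as pairs: the amino acid exchanger Slc7a5 reaches the plasma membrane only bound to the glycoprotein Slc3a2, and the lactate carrier Slc16a1 needs the chaperone basigin (Bsg). Amino acid carriers such as Slc7a11, Slc7a5 and Slc38a2 are textbook targets of the amino acid response, in which the factor ATF4 binds response elements in its target genes, not always in the promoter.

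The libraries held between 3629634 and 7762635 counts, and 0.811% to 0.990% of these came from the 113 members. The fixed library at 800 µM labelled A stood apart: its TMM scaling factor was 0.835, the lowest of the 12, and its chi-square per degree of freedom against B was 22.8, where the other groups' pairs ranged from 3.23 to 7.07. The summed level of 9 fibroblast markers ranged from 15574 to 23279 CPM (counts scaled to library size). Its largest parts were S100a4 (6353 to 14010 CPM) and Vim (2758 to 6560), and its smallest was Pdgfrb (17.1 to 35.3). The listed epithelial markers with values, Cdh1 and Krt8, summed to at most 1.098 CPM, and Epcam and Krt18 had none. Endothelial markers summed to at most 1.37 CPM, immune to at most 11.1 and neural to at most 11.3 in any library. In bulk RNA, fewer cells of a type and less RNA per cell cannot be told apart.

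Carriers of the Slc25 family had the highest levels per kilobase (kb) of gene length in tubes without 4sU. Slc25a5 and Slc25a4, the ADP/ATP translocases, reached 276 and 268 CPM per kb. Slc25a39, a glutathione carrier, followed with 157 CPM per kb, and Slc25a3, the phosphate carrier, with 143. Among amino acid and peptide carriers the highest were Slc3a2, the heavy chain of several exchangers, with 142 CPM per kb, Slc38a2, a sodium-coupled neutral amino acid carrier, with 58.7, and Slc1a5, a glutamine carrier, with 58.5. The heme carrier Slc48a1 reached 101.8 CPM per kb, and the zinc carriers Slc39a7 and Slc39a1 reached 83.6 and 39.8. The phosphate carriers Slc20a1 and Slc20a2 led the ion carriers with 66.8 and 18.2 CPM per kb, ahead of the potassium-chloride cotransporter Slc12a4 with 17.4. The glucose carrier Slc2a1 stood at 40.5 CPM per kb, ahead of Slc50a1 with 14.1 and the myo-inositol carrier Slc5a3 with 10.1. The remaining groups were lower still, led by Slc10a3 with 22.6, Slc16a1 with 21.99 and Slc16a13 with 14.1 among carriers of monocarboxylates and organic ions. Slc35a4, Slc35a1 and Slc35a2 of the nucleotide sugar family stood at 21.6, 17.1 and 5.99 CPM per kb. Slc19a1, a folate carrier, Slc44a2, a choline carrier-like protein, and Slc27a4, a fatty acid carrier, stood at 17.98, 12.6 and 12.4. Slc7a11, the cystine-glutamate exchanger, ranked 113 of 113.

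The first comparison asked whether the procedure itself changed the levels of these mRNAs, using the libraries without 4sU. Over all 11080 genes tested, 31.4% were called at an adjusted p under 0.05, 16.2% higher and 15.2% lower in fixed cells, with a median log2 fold change of -0.01. Carriers of inorganic ions were lower in fixed cells than in tubes in 12 of 16 genes (75%) and higher in none, with a median log2 fold change of -0.81. With 1 library left out, fewer of the 16 were called lower, as were fewer of all genes, and the median of the 16 lay between -0.89 and -0.76. The bicarbonate, chloride and sulfate carriers Slc4a4, Slc12a4, Slc4a3 and Slc26a2 were among the 12 called lower. Of the 27 carriers of the Slc25 family 6 rose (22.2%, near the share of all genes called higher) and 2 fell, with a median of 0.26. With 1 library left out, fewer of the 27 were called higher, as were fewer of all genes. The median of the 27 then lay between 0.11, without tube library A, and 0.28. The median turned to -0.08 when the libraries were scaled on low-ratio genes (the 1846 genes lowest by mean new-to-total ratio). Slc25a3 showed the largest rise among all members, 2.24-fold, and Slc4a4 the largest fall, to 0.331 of its level in tubes. In unscaled counts, the Slc25 carriers took 0.326% to 0.375% of a library in the 6 tube libraries and 0.395% to 0.425% in the 6 fixed ones, while the other 86 members took 0.579% to 0.623% and 0.410% to 0.5004%. These ranges did not overlap. Such a sum weighs abundant genes most. Slc25a3 is abundant and rose 2.24-fold, and the family's share without it was not computed. The separation of the Slc25 ranges is therefore not shown for the family beyond this gene. No other set of genes was summed in this way.

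Among the 113 members 38 were called, near the background of 31.4%, of which 8 were higher and 30 lower, with a median of -0.21. The same scaling on low-ratio genes moved the median of all genes to -0.35 and the member calls to 2 higher and 58 lower, and all genes to 752 higher and 3622 lower. With each of the 4 libraries left out in turn, 19 of the 38 calls remained. 18 remained under every alternative, 2 rises and 16 falls.

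**Figure D1:**
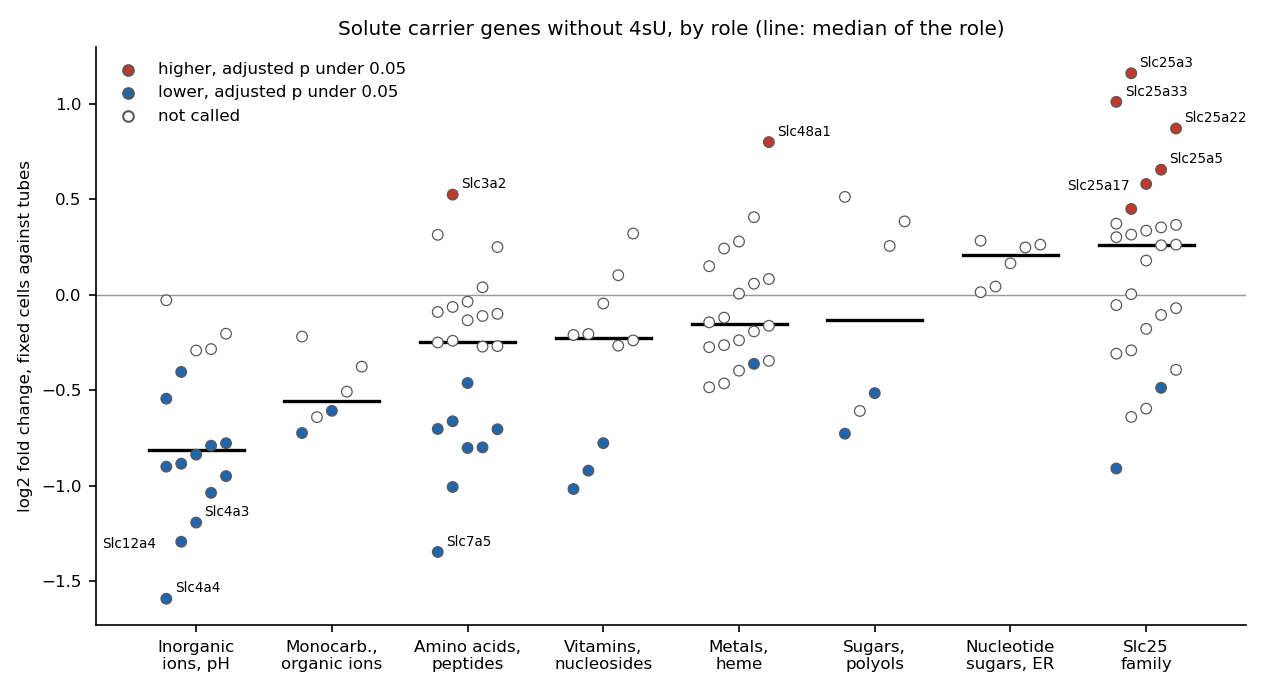
Log2 fold change between fixed cells and tubes without 4sU (vertical axis) for the 113 genes, each a point, in 8 groups by substrate or location; the line is the group's median. Carriers of inorganic ions lie at the low end, with 12 of 16 called lower, and the Slc25 family holds 6 of the 8 genes called higher.

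Slc25a3, which brings phosphate into the mitochondrion, lies on chromosome 10 from 91116574 to 91124059 on the minus strand (GRCm38). It had 592 and 566 CPM in the 2 tube libraries without 4sU and 1311 and 1278 CPM in the fixed ones. Every fixed library at any dose was above every tube library, the highest of which had 819 CPM. The log2 fold change without 4sU was 1.16 ± 0.12 (SE, adjusted p = 5.32e-06), and it was 0.82 under the low-ratio scaling, still called. Slc25a5 had 352 and 332 CPM in tubes against 531 and 547 in fixed cells, a log2 fold change of 0.65 ± 0.15 (SE, adjusted p = 0.00221). Under the low-ratio scaling that call was lost (0.31, adjusted p = 0.0701). Slc25a4 had 531 and 499.6 CPM in tubes and 675 and 732 in fixed cells, a log2 fold change of 0.45 ± 0.14 (SE, adjusted p = 0.0243). The other 3 rises in the family were in genes of low level. Slc25a33, a pyrimidine nucleotide carrier, had 7.22 and 10.7 CPM in tubes and 18.6 and 17.9 in fixed cells, Slc25a22, a glutamate carrier, 15.2 and 12.3 against 24.05 and 25.9, and Slc25a17, a family member of the peroxisome, 22.6 and 14.7 against 26.1 and 29.1. Their log2 fold changes were 1.01, 0.87 and 0.58, and each lost its call under the low-ratio scaling, as did Slc25a4. With 1 of the 4 libraries left out, Slc25a22 and Slc25a4 were called in none of the fits, Slc25a17 in 1 and Slc25a33 in 3. The 2 that fell, Slc25a37, which carries iron, with a log2 fold change of -0.91 and Slc25a44, a branched-chain amino acid carrier, with -0.49 and a call in 1 of the 4 leave-one-out fits, are named here after their values were seen.

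Outside the family, the heme carrier Slc48a1 and the heavy chain Slc3a2 were the only members called higher. Slc48a1 had 231 and 285 CPM in tubes against 454 and 445 in fixed cells (log2 fold change 0.80 ± 0.14, SE, adjusted p = 2.57e-04), and its call held under every alternative tried. The heavy chain and its light chain moved in opposite directions. Slc3a2 had 409 and 388 CPM in tubes and 632 and 514 in fixed cells (0.52 ± 0.14, SE, adjusted p = 0.00840), a call that was lost under the low-ratio scaling (0.18, adjusted p = 0.305) and in 2 of 4 leave-one-out fits. Slc7a5 had 55.3 and 45.6 CPM in tubes and 21.2 and 18.4 in fixed cells (-1.35 ± 0.20, SE, adjusted p = 8.89e-05). In all 6 fixed libraries Slc7a5 lay at or below 25.4 CPM, and in all 6 tube libraries at or above 36.8. Beside Slc7a5, 7 more of the 22 amino acid and peptide carriers fell (36.4% in all, beside 15.2% of all genes), and the group's median was -0.25. Slc1a5 was one of these, with 159.8 and 169 CPM in tubes and 108 and 94.0 in fixed cells (-0.70 ± 0.14, SE, adjusted p = 9.37e-04). Slc38a2 had 269 and 274 CPM in tubes and 319 and 327 in fixed cells, which did not pass the test (0.25, adjusted p = 0.128), and its sign turned under the low-ratio scaling (-0.09).

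Among the ion carriers, Slc4a4, a sodium-bicarbonate cotransporter on chromosome 5 from 88886818 to 89239653, had 44.5 and 43.02 CPM in tubes and 15.8 and 13.3 in fixed cells. Its log2 fold change was -1.59 ± 0.20 (SE, adjusted p = 1.76e-05). Slc12a4 had 73.1 and 59.5 CPM against 25.5 and 28.3 (-1.29 ± 0.21, SE, adjusted p = 1.83e-04). For both genes, every fixed library of any dose was below every tube library. The anion exchanger Slc4a3 was sparse, with 11.5 and 15.5 CPM against 7.14 and 4.80 (-1.19 ± 0.32, SE, adjusted p = 0.00748), and its call was lost in 2 of 4 leave-one-out fits. Slc20a1, a phosphate carrier that also serves as a retroviral receptor, showed a smaller fall, from 209 and 234 CPM to 185 and 149.7 (-0.40 ± 0.14, SE, adjusted p = 0.0390), a call lost in 3 of 4.

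Calls in the smaller groups stand beside 16.2% of all genes called higher and 15.2% called lower. Carriers of monocarboxylates and organic ions had 2 of 6 genes that fell, Slc16a1 (-0.72, adjusted p = 0.00117) and Slc16a13 (-0.61), and a median of -0.56. Slc16a1 had 106 and 88.8 CPM in tubes and 55.8 and 61.7 in fixed cells. The sugar and polyol carriers had 2 of 6 that fell, Slc5a3 (-0.73) and Slc2a1 (-0.52). With 1 library left out, Slc2a1 and Slc16a13 were called in none of the 4 fits. Of the 10 carriers of vitamins, nucleosides, choline and lipids 3 fell, namely Slc29a3, a nucleoside carrier (-1.02), Slc27a4 (-0.92) and Slc44a2 (-0.78). Of the 20 metal and heme carriers, 1 rose (Slc48a1) and 1 fell (Slc39a7, -0.36, adjusted p = 0.0441, and called in 1 of 4 leave-one-out fits), while Slc39a1 stood at -0.12 (adjusted p = 0.587). None of the 6 nucleotide sugar and related carriers was called, and their median of 0.21 turned to -0.14 under the low-ratio scaling.

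**Figure D2:**
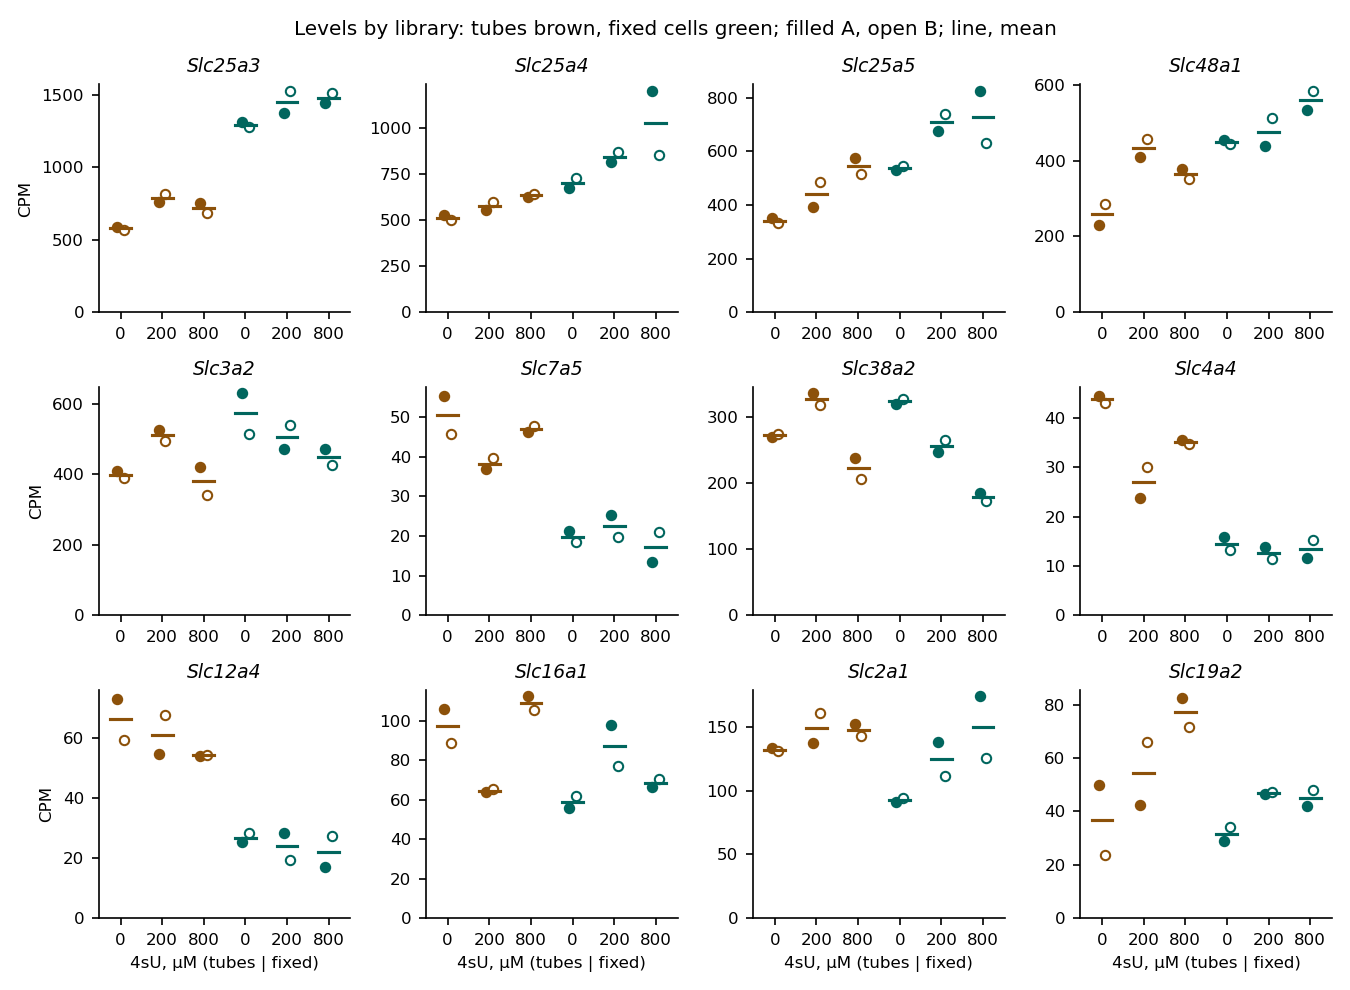
CPM of 12 genes in each of the 12 libraries, on linear axes from 0, by 4sU dose in tubes (brown) and fixed cells (green); filled points are A, open points B, and lines are means of 2. Slc25a3 lies between 566 and 819 CPM in tubes and between 1278 and 1524 in fixed cells, while Slc4a4 lies at or above 23.9 in tubes and at or below 15.8 in fixed cells.

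Gene length moved with this difference. Across all 11080 genes, longer genes had lower log2 fold changes in fixed cells (Spearman rho -0.42), and across the 113 members rho was -0.39. These are descriptions across genes, which share the same libraries and are not independent replicates. Slc25 carriers were shorter, with a median deposited length of 2945 bases against 4015 for the other members. Carriers of inorganic ions, the group with the lowest median fold change, were longer, with a median of 4914 bases. All genes tested had a median of 3385 bases. Among members under the median length, a split chosen after the data were seen, the median log2 fold change was 0.30 for 17 Slc25 carriers and -0.19 for 39 others. At or over it the medians were -0.08 for 10 and -0.27 for 47. Within the Slc25 carriers rho with length was -0.25, and within the others -0.33. The part of length in the difference was not tested beyond these values.

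**Figure D3:**
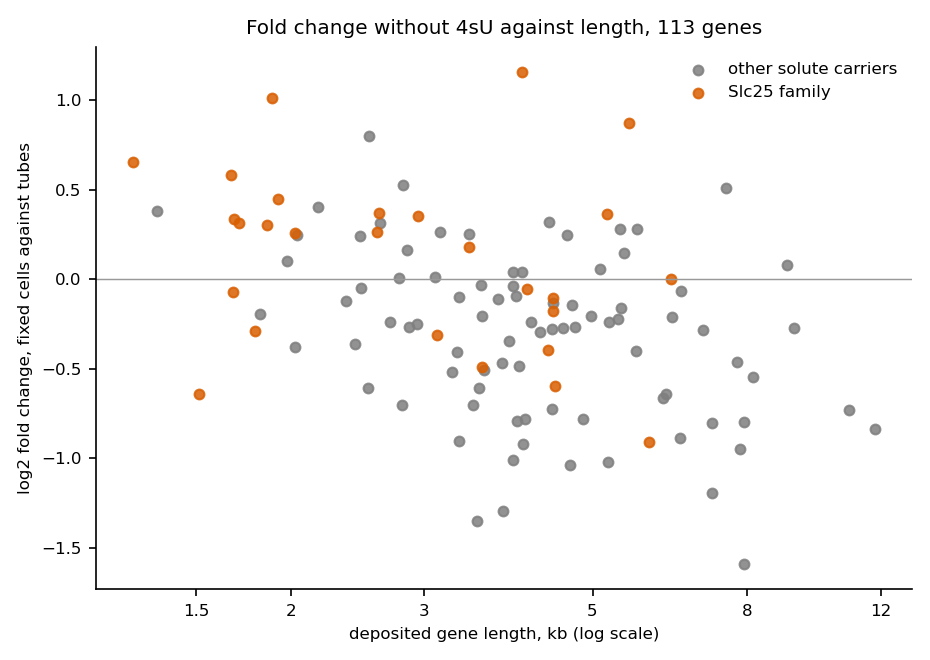
Log2 fold change between fixed cells and tubes without 4sU (vertical axis) against deposited gene length in kb (horizontal axis, log scale) for 113 genes; orange points are the 27 Slc25 carriers, grey points the other 86. Points fall with length, with a Spearman rho of -0.39 over the 113.

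Carriers and partner proteins with other symbols were examined as a second list of 37 names, of which 34 were tested. In fixed cells without 4sU 7 of these rose and 11 fell, with a median of -0.21. Over all genes, 16.2% were called higher and 15.2% lower. Both subunits of the mitochondrial pyruvate carrier were among the 7. Mpc1 had a mean of 5.58 CPM in tubes and 16.1 in fixed cells (log2 fold change 1.53 ± 0.29, SE, adjusted p = 6.80e-04), and Mpc2 had 37.0 and 85.7 CPM (1.21 ± 0.15, SE, adjusted p = 1.51e-05). The basigin gene, Bsg, fell with its client Slc16a1, from a mean of 509.6 to 286 CPM (-0.83 ± 0.14, SE, adjusted p = 3.14e-04). The phosphate exporter Xpr1 fell by 1.07 on the log2 scale and the lysosomal cholesterol carrier Npc1 fell by 1.72. Others called on the list went both ways: Emb and Mtch2 rose by 0.59 and 0.87, while Mtch1 and Sfxn5 fell by 0.61 and 0.79. The genes named from this list were picked after their values were seen and do not stand for its partners or its mitochondrial proteins as a set.

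The next comparisons asked whether 4sU itself changed carrier mRNAs within a procedure. In tubes at 200 µM 4 of 113 members were called, 2 higher and 2 lower, where 3.75% of all genes were called. The heme carrier Slc48a1 rose from 231 and 285 CPM to 409 and 458 (log2 fold change 0.75 ± 0.14, SE, adjusted p = 0.00966), and Slc25a3 rose from 592 and 566 to 762 and 819 (0.45 ± 0.12, SE, adjusted p = 0.0489). The lactate and pyruvate carrier Slc16a1 fell from 106 and 88.8 CPM to 63.9 and 65.5 (-0.59 ± 0.15, SE, adjusted p = 0.0376). Slc4a4 fell from 44.5 and 43.02 CPM to 23.9 and 30.1 (-0.69 ± 0.19, SE, adjusted p = 0.0481). The libraries of the compared groups did not overlap for any of the 4. Genes called from 2 libraries a group seldom do, so this adds no support to the calls. With 1 of the 4 libraries left out, Slc48a1 stayed called in 2 of 4 fits and the other 3 in none.

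In tubes at 800 µM 2 members rose and none fell, where 1.87% of all genes were called. Slc25a5 rose from 352 and 332 CPM to 575 and 517 (log2 fold change 0.67 ± 0.15, SE, adjusted p = 0.0222). The thiamine carrier Slc19a2 rose from 50.0 and 23.8 CPM to 82.4 and 71.8 (1.08 ± 0.25, SE, adjusted p = 0.0315). The control libraries of Slc19a2 were far apart, and its log2 fold change ranged from 0.63 to 1.70 with a library left out. Slc25a5 stayed called in none of the 4 leave-one-out fits and Slc19a2 in 1.

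In fixed cells at 200 µM no member was called by edgeR, where 0.812% of all genes were called. An unadjusted p under 0.05 was found for 13 members (11.5%) and for 12.6% of all genes. DESeq2 called 1 member, Slc16a1. edgeR also called Slc16a1 when a fixed library at 800 µM was left out of the joint fit (adjusted p = 0.0228 without A and 0.0313 without B). The smallest p belonged to Slc16a1, which had 55.8 and 61.7 CPM without 4sU and 97.6 and 77.0 with it (0.57 ± 0.15, SE, adjusted p = 0.0835). Next were Slc36a1, a proton-coupled amino acid carrier, at -0.71 (adjusted p = 0.153) and the glucose carrier family member Slc2a10 at -1.10 (adjusted p = 0.161).

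In fixed cells at 800 µM 4 members were called, 2 in each direction, where 2.66% of all genes were called. Slc38a2, which imports small neutral amino acids, fell from 319 and 327 CPM to 184 and 172 (-0.86 ± 0.12, SE, adjusted p = 0.00123). It was called with each of the 4 libraries left out and under every other alternative. Slc36a1 fell from 27.1 and 26.9 CPM to 10.9 and 17.2 (-0.92 ± 0.23, SE, adjusted p = 0.0347). The glucose carrier Slc2a1 rose from 90.7 and 94.0 CPM to 174 and 125 (0.69 ± 0.16, SE, adjusted p = 0.0250), and Slc25a4 rose from 675 and 732 to 1204 and 856 (0.55 ± 0.14, SE, adjusted p = 0.0490). For Slc2a1, Slc36a1 and Slc25a4 the more extreme value was in the library that stood apart, A, and each stayed called in 1 of 4 leave-one-out fits. Without that library 1 member was called, and without its partner B 12 were (10.6%, as of all genes).

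In each of the 4 comparisons with 4sU, the members' median log2 fold change lay between -0.04 and 0.03, and that of all genes between -0.002 and 0.03. Under the low-ratio scaling the medians of all genes fell to between -0.18 and -0.11, and those of the members to between -0.18 and -0.13. Slc39a1 and Slc20a1, uncalled in all 4, had values between 0.02 and 0.21, each of which this scaling turned negative in 3 of 4 comparisons. Slc7a5 stood at -0.40 and -0.10 in tubes at 200 and 800 µM and at 0.20 and -0.18 in fixed cells, and Slc3a2 at 0.36, -0.06, -0.18 and -0.35, none of them called.

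Slc7a11 is known as an amino acid response gene, and its promoter carries the response element as an inverted pair, which is why it is shown. The 250 bases before each RefSeq start were searched for TGATGNAA on both strands (RefSeq promoters, GRCm38.p6), a motif chosen with the results known. The motif was in the promoters of 2 of the 86 members matched by symbol, Slc7a11 and Slc50a1. It was in 2 of the matched members' 110 promoters (1.82%) and in 3.45% of all 32851 promoters. The stretch of Slc7a11 at chr3:50443628-50443704, minus strand, printed 5′ to 3′ with both matches in capitals, begins its matches 66 and 47 bases before the start.
Slc7a11: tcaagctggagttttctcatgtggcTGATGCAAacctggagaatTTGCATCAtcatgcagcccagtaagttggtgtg
Levels of Slc7a11 lay between 3.94 and 12.5 CPM over the 12 libraries, with overlap between all the groups compared. Its log2 fold changes with 4sU were 0.24 and 0.42 in tubes and 0.57 and 0.34 in fixed cells at 200 and 800 µM, with adjusted p between 0.564 and 0.773. A match is a description of letters and not a measured binding site.

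**Figure D4:**
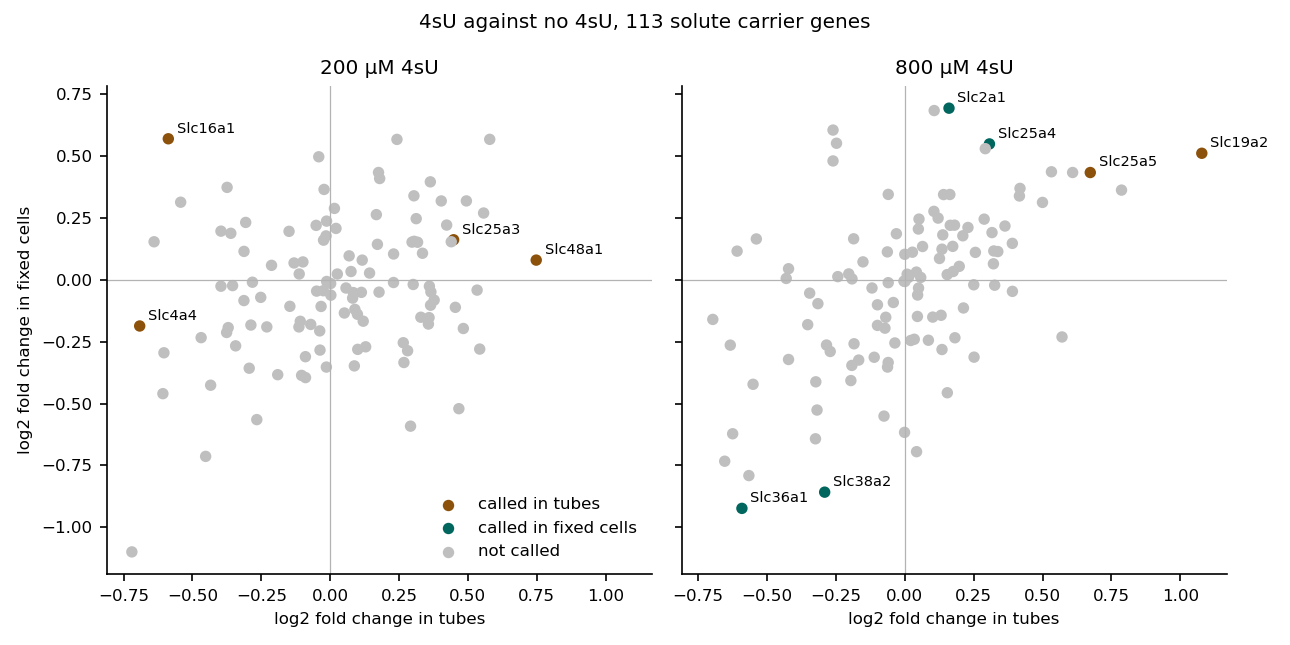
Log2 fold change with 4sU in fixed cells (vertical axis) against that in tubes (horizontal axis) for 113 genes at 200 µM (left) and 800 µM (right); brown points were called in tubes and green in fixed cells. Slc16a1 lies at -0.59 in tubes and 0.57 in fixed cells at 200 µM, and no gene was called in both procedures at the same dose.

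The difference between procedures in the 4sU effect was tested directly. At 200 µM no member and 0 of all genes (0%) were called by edgeR, with 14 members (12.4%) and 8.96% of all genes at an unadjusted p under 0.05. Slc16a1 had the smallest p of the members: its fall in tubes and higher level in fixed cells differed by 1.16 ± 0.21 on the log2 scale (SE, adjusted p = 0.147). DESeq2 called it (adjusted p = 0.00397), as did edgeR without the filter on low counts (adjusted p = 4.52e-04). edgeR with the filter called it when either fixed library at 800 µM was left out, with an adjusted p of 0.0235 without A, which stands apart, and of 0.0302 without B. Over all its alternatives the adjusted p ranged up to 0.892. Next were the sodium-proton exchanger Slc9a5 at -0.99 and Slc38a2 at -0.60 (adjusted p = 0.304 and 0.317). Differences for the other genes followed throughout ran from -0.54 for Slc3a2 to 0.59 for Slc7a5, with Slc25a3 at -0.29, Slc25a5 at 0.03, Slc20a1 at -0.03, Slc39a1 at 0.19, Slc2a1 at 0.26 and Slc7a11 at 0.33.

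At 800 µM no member and 0 of all genes (0%) were called by edgeR, 10 members (8.85%) and 5.90% of all genes had an unadjusted p under 0.05, and DESeq2 called 0 members. The smallest p values belonged to Slc38a2, with a difference of -0.57 ± 0.17, to the dicarboxylate carrier Slc25a10, with -0.80 ± 0.25, and to the sulfate carrier Slc26a2, with 0.80 ± 0.29 (SE, adjusted p = 0.822 for each). The others were Slc2a1 at 0.53, Slc3a2 at -0.29, Slc25a5 at -0.24, Slc25a3 at -0.13, Slc7a5 at -0.08, Slc7a11 at -0.08, Slc39a1 at 0.07, Slc16a1 at 0.06 and Slc20a1 at 0.04. A p above the threshold does not show that both procedures gave the same response.

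The new-to-total ratio, the authors' estimate of the share of a gene's RNA made during labelling, was examined in the 8 labelled libraries. No ratio of the unlabelled libraries was used here, so a background is not given. Over the 113 members, mean ratios ran from 13.4% to 95.8%. Slc19a2 had the highest mean ratio, 95.8%, with library values from 90.4% to 99.9%. It was followed by Slc25a32, a folate or FAD carrier (87.3%), Slc25a44 (86.9%), Slc3a2 (84.3%), Slc2a10 (82.7%) and Slc38a2 (82.3%). Slc25a32 and Slc2a10 are sparse and their libraries spread widely, from 65.2% to 100% and from 60.9% to 100%. Slc3a2 ranged from 73.3% to 92.1%, with deposited posterior intervals (the quantiles at 5% and 95%) about each value, such as 82.1% to 86.1% in tube library A at 200 µM. The lowest mean ratios were those of the citrate carrier Slc25a1 (13.4%), Slc25a39 (13.95%), the amino acid carrier Slc38a4 (14.1%), the choline carrier Slc44a1 (14.5%), Slc39a1 (14.98%) and Slc50a1 (16.5%).

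The heavy chain and light chain that pair in one exchanger differed in ratio: Slc7a5 had a mean of 27.5%, with library values from 19.1% to 37.2%, all below the lowest value of Slc3a2. Slc20a1 had a mean of 75.8%, Slc2a1 54.5%, Slc16a1 41.5% and Slc7a11 37.6%. The ADP/ATP translocases Slc25a4 and Slc25a5 had means of 18.6% and 17.5%. Of the 65 members with at least 100 counts in each labelled library, 16 were Slc25 carriers, with a median mean ratio of 23.6%. The other 49 had a median of 36.7%, and all 5538 such genes 35.3%. Across the 113 members the mean ratio and the log2 fold change of fixed cells against tubes without 4sU had a Spearman rho of -0.17, against -0.30 over 10987 genes, as descriptions across genes.

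**Figure D5:**
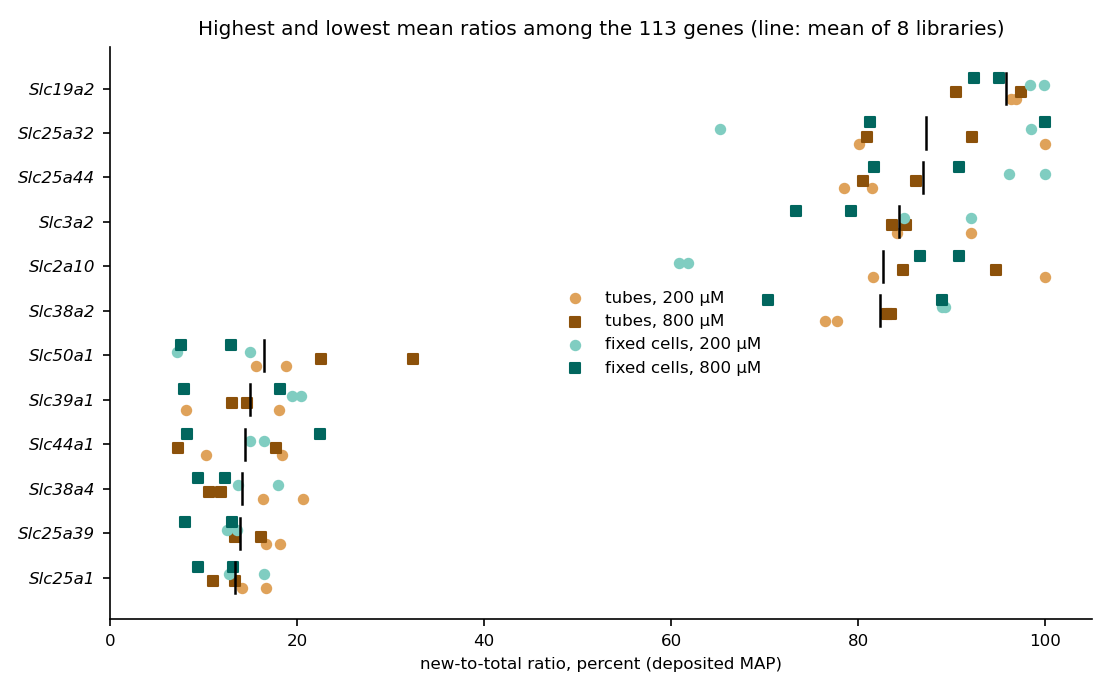
New-to-total ratio in percent (horizontal axis, from 0) in the 8 labelled libraries for the 6 genes at the top and the 6 at the bottom of the order by mean ratio, 1 point per library; circles are 200 µM, squares 800 µM, brown tubes, green fixed cells, and the line is the mean. The upper 6 genes average between 82.3% and 95.8% and the lower 6 between 13.4% and 16.5%.

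Between procedures, 39 of 65 members (60%) had a lower ratio in fixed cells at 200 µM, beside 69.8% of all 5538 genes, and 49 of 65 (75.4%) at 800 µM, beside 82.9%. No member passed limma's test at either dose, and 0 of all genes did (0%), with 6 and 8 members (9.23% and 12.3%) at an unadjusted p under 0.05 beside 19.1% and 20.3% of all genes. The smallest p at both doses belonged to Slc25a10, which carries dicarboxylates such as malate and succinate. At 800 µM its ratio was 26.3% and 23.3% in tubes and 13.3% and 12.7% in fixed cells, and at 200 µM 21.04% and 25.3% against 14.3% and 13.7% (adjusted p = 0.0950 and 0.122). Every fixed library was below every tube library for this gene. The phosphate carrier Slc25a3 came next at both doses, with 20.4% and 22.3% in tubes and 14.1% and 13.3% in fixed cells at 200 µM, and 19.2% and 20.5% against 11.2% and 13.4% at 800 µM (adjusted p = 0.149 and 0.134). The member with the largest rise in total level in fixed cells thus had a lower ratio in all 4 fixed libraries than in any tube library, without passing the test. A lower ratio was the direction of most genes at both doses. At 200 µM other members also lay wholly below the tube libraries, such as Slc25a5, or wholly above them, such as Slc31a1.

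The third at 200 µM was Slc25a44, with a higher ratio in fixed cells, 100% and 96.2%, than in tubes, 78.5% and 81.5% (adjusted p = 0.152). At 800 µM it was the glycine carrier Slc6a9, with 29.9% and 30.1% in tubes and 17.2% and 22.9% in fixed cells (adjusted p = 0.165). The median ratio of the members in the fixed library A at 800 µM was 26.4%, and of all genes 25.95%, the lowest of the 8 libraries in both. Without its partner B, 12 of 65 members were called at 800 µM (18.5%, near the 16.8% of all genes), and without A none.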

How the data were processed

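The study sequenced RNA of 12 NIH-3T3 libraries and deposited 1 table. Its read values are estimated counts made by the authors (16.2% to 22.0% of values per library are not whole), and they were rounded for the count tests. Its new-to-total ratios are fractions deposited as a posterior mode, mean and quantiles, shown here as percentages, and the deposited alpha and beta columns are scores that were not tested. cutadapt, Bowtie2 2.3.0 and STAR 2.7.10b were used per the submitters' processing notes. The build, annotation and ratio tool were not given in the sources used here.

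Counts were tested in 1 fit of 12 libraries and 6 groups with edgeR 4.0.16 (quasi-likelihood test, TMM scaling, filterByExpr with a minimum count of 10 and total of 15), with Benjamini-Hochberg adjustment over 11080 genes at 0.05. CPM values use TMM-scaled library sizes, and log2 fold changes are edgeR's. Ratios held between 0.001 and 0.999 were tested on the log2 odds scale with limma 3.58.1 in R 4.3.3 for 5538 genes with 100 counts in each labelled library. DESeq2 1.42.0 and the other settings given at the end were alternatives. The code was tested on simulated data. Coordinates are from GENCODE M21 (GRCm38) and promoters from RefSeq (GRCm38.p6). The replicate letters did not pair the libraries, with correlations of deviations from -0.26 to 0.33 over 15 pairs of groups and 3 above 0.1.

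The members, lists and roles were chosen with earlier results of these data known. The genes named are 10 fixed ones in each count comparison, all called members up to 12 (otherwise the 6 largest rises and 6 largest falls, or the 3 smallest p where none was called), the 3 highest per kb in each role, and for ratios the 6 highest, 6 lowest and 3 smallest p. 1 gene that this rule names is not reported here.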

Additional observations from a re-analysis of the deposited data

How the results depend on the processing

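The threshold of 0.05 with 2 libraries a group limits these results, and the sparse members most. Low-ratio scaling (on 1846 genes, those lowest by mean ratio) gave 60 called members in fixed cells against tubes without 4sU. These were 53.1%, beside 39.5% of all genes, with 2 higher and 58 lower, 1 Slc25 carrier higher and 13 amino acid carriers lower. The same scaling gave 8 called at 800 µM in fixed cells (7.08%, beside 6.82% of all genes). Without the filter on low counts 7 were called at 200 µM in tubes (6.19%, beside 5.69% of all genes), 2 at 200 µM (1.77% beside 1.68%) and 8 at 800 µM in fixed cells (7.08% beside 5.43%), and 2 in the difference between procedures at 200 µM (Slc16a1 and Slc9a5, 1.77% beside 0.506%). DESeq2 called 1 (0.885%) at 200 µM in fixed cells, beside 1.07% of all genes, and 1 in the difference at 200 µM, beside 0.0993%. The replicate block, fitted although the letters did not pair the libraries, gave 2 called members at 200 µM in tubes (1.77%, beside 2.89% of all genes). It gave 36 in fixed cells against tubes (31.9%, beside 30.3% of all genes). The causes were not tested.

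Leaving out each library in turn gave 25 to 30 called members in fixed cells against tubes, with 4 to 5 higher, 3 Slc25 carriers higher in every such fit, and 5 to 8 amino acid carriers lower. It gave 0 to 1 at 200 µM and 0 to 1 at 800 µM in tubes, 1 to 12 at 800 µM in fixed cells, 0 to 1 in the difference at 800 µM (Slc25a1, without fixed B), 0 to 1 for the ratio at 200 µM (without fixed B) and 0 to 12 for the ratio at 800 µM. The libraries left out here were those of the groups compared. Leaving out a fixed library at 800 µM raised the number called in both tube comparisons and in fixed cells against tubes, for members and for all genes. In the same comparisons, leaving out a compared library lowered the share of all genes called as well as the members'. In fixed cells against tubes the members' share stayed slightly above that of all genes in each such fit, as in the full fit. For the difference at 800 µM and the ratio at 200 µM, genes outside the list were also called without fixed B. A lone library was taken to vary like the other groups.

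Signs were followed only for the genes named in each comparison, and among these, signs that turned all belonged to uncalled values. Under the low-ratio scaling they were Slc2a1 (-0.018 and -0.0047), Slc20a1 (-0.020 and -0.027), Slc39a1 (-0.17 and -0.10) in tubes at 200 and 800 µM, Slc16a1 (-0.0010) in tubes at 800 µM, Slc20a1 (-0.0094) and Slc39a1 (-0.056) in fixed cells at 800 µM, and Slc38a2 (-0.093) between procedures without 4sU. The difference at 200 µM for Slc20a1 became 0.0216 with RLE scaling, 0.0545 with low-ratio scaling and 0.0217 with DESeq2. With libraries left out, Slc7a11 ranged from -0.13 to 0.54 at 200 µM in tubes, from -0.12 to 1.12 at 800 µM in fixed cells, from -1.05 to 0.19 between procedures, and from -0.14 to 1.16 and -0.54 to 0.74 for the differences at 200 and 800 µM. Slc39a1 ranged from -0.076 to 0.12 and -0.012 to 0.14 in tubes at 200 and 800 µM, from -0.030 to 0.33 at 800 µM in fixed cells and from -0.059 to 0.26 for the difference at 800 µM. Slc7a5 ranged from -0.23 to 0.047 in tubes and -0.54 to 0.14 in fixed cells at 800 µM, and from -0.45 to 0.27 for the difference. Slc3a2 ranged from -0.22 to 0.085 at 800 µM in tubes, Slc16a1 from -0.078 to 0.21 and Slc20a1 from -0.071 to 0.22 for the difference at 800 µM, and Slc20a1 from -0.12 to 0.13 and Slc25a5 from -0.11 to 0.19 for that at 200 µM.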

Other observations

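Over the 6 group means, the median log2 CPM of the members was 5.17, 5.27 and 5.30 in tubes at 0, 200 and 800 µM 4sU and 4.90, 5.05 and 4.91 in fixed cells. This median of levels does not give the typical change of a member. The members' median log2 fold changes at 200 and 800 µM were 0.02 and 0.03 in tubes and -0.04 and 0.01 in fixed cells. Among the genes outside the list, Taf15, Napg and Btbd7 had the profiles most like the median of levels over these 6 group means. That likeness is a description of group means that share all 12 libraries.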
